A study of Mus musculus with 4 samples.

Results

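The genes described here are 62 of the 6404 genes with a value of their own in a mouse array study, the measured members of the families that regulate or carry out innate immunity: interferon receptors, Irf and Stat transcription factors, Tlr and RNA sensors, Ifi, Ifitm, Oas and Isg genes, Usp18, Parp and Trim genes. They were taken by a rule on gene symbols, and the members were chosen with earlier results of these data known. Ifih1, Ifit1, Ifitm3 and Oasl2, which match these families, were left out by name. The cells were EML, a mouse lymphohematopoietic progenitor line kept in stem cell factor (SCF), which binds the receptor tyrosine kinase KIT. They carried by retrovirus either the KIT mutant D816V, in the phosphotransferase domain, or Del417-419insY, in the extracellular domain, and both populations had been selected with geneticin, grown without factor until autonomous and sorted for KIT. The 4 groups were D816V with SCF at 250 ng/mL for 48 h, D816V without SCF, Del417-419insY with the same SCF treatment and Del417-419insY without SCF, with 1 array each.

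Each mutant line was 1 population, nothing in the labels names repeat cultures, and unmutated EML cells were not analysed here, so a difference is between these 2 lines and no value has a replicate. The sample labels name a time only for the arrays with SCF. Values are log2, each probe set having its own zero, so that a gene can be compared between arrays and genes cannot be ranked by level. Markers were counted as higher or lower by the limma test described below, which called 17.9% of all genes higher and 24.7% lower. Of 8 progenitor markers 4 had values, 2 higher and 2 lower in D816V cells. Their sums were -2.98 and -1.61 in D816V cells with and without SCF, against -1.17 and -1.31 in Del417-419insY cells. Kit, the SCF receptor, was at -2.34 and -1.83 in D816V cells with and without SCF, against -0.57 and -0.76 in Del417-419insY cells, while Cd34, Ly6a, Flt3 and Tal1 were not analysed here. Of 8 mast cell markers 7 had values, and 6 passed as higher in D816V cells. Ms4a2 had a mean difference of 0.62 and did not pass (limma adjusted p = 0.109). Sums over the 7 were 0.715 and 8.70 in D816V cells with and without SCF, against -14.0 and -8.78 in Del417-419insY cells. Of 8 macrophage and monocyte markers Cd68 and Lyz2 had values (mean differences of 2.81 and -0.86, sums of -0.324 and 0.181 in D816V cells against -2.23 and -1.82 in Del417-419insY cells), of 7 dendritic markers 4 had values (3 higher, 1 lower, sums of 0.267 and 0.723 in D816V cells against -3.17 and -2.82 in Del417-419insY cells), and of 4 fibroblast markers Pdgfrb alone (-0.90 and -0.90 in D816V cells against -0.56 and -0.99 in Del417-419insY cells). T, NK and B cell markers were not analysed here. In bulk RNA, a different share of some cell type and a different amount of RNA per cell cannot be told apart, and the part of these markers in the results below was not tested.

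Type I interferons bind the receptor made of Ifnar1 and Ifnar2, interferon gamma binds a receptor that contains Ifngr1, and the kinases attached to them activate STAT proteins. STAT2 and IRF9 belong to a complex that binds the interferon-stimulated response element in promoters of interferon-induced genes, whose products degrade viral RNA, modify proteins or feed back on the pathway. Tlr12, a mouse receptor for parasite profilin, and Ddx58, which encodes the RNA sensor RIG-I, act upstream as sensors. The symbol rule also took in genes best known for other roles, such as the DNA repair enzyme gene Parp1, the transcriptional cofactor genes Trim24, Trim28 and Trim33, and 3 genes of Irf2-binding proteins.

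Most measured Oas, Isg, Usp18, Ifi and Ifitm genes were higher in D816V cells, while interferon receptor and STAT genes included lower members and none that passed as higher. In the limma test (lmFit and eBayes with mutant and SCF as additive terms, two-sided, with p adjusted by Benjamini-Hochberg across 6404 genes and called under 0.05), 24 of the 62 genes were higher in D816V cells, 16 were lower and 22 did not pass. Over all genes 42.6% were called, 17.9% higher and 24.7% lower, so the share of lower genes, 25.8%, was near the background and the share of higher ones, 38.7%, was above it. The background depended on scaling, with 1147 higher and 1579 lower genes on the deposited values, 1628 and 1263 after cyclic loess, 1526 and 1387 on quantile-normalized values and 1720 and 1302 when medians were centred. With 1 residual degree of freedom, a gene's own error comes from how far the lines differ in their SCF change. The eBayes prior of 4.1 degrees of freedom, estimated from all genes, weighs more than that error. The p-values thus say nothing of repeat arrays or of repeat populations. For 26 of the 62 genes both D816V arrays lay above both Del417-419insY arrays, and for 22 both lay below, against 29.1% and 40.7% of all genes.

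Counted by size, 16 of the 62 genes were 2-fold or more higher in D816V cells with SCF, where 6.34% of all genes were, and 16 without SCF, where 6.29% were. In the other direction 5 were 2-fold or more lower with SCF (7.42% of all genes) and 1 was without SCF (4.2% of all genes). In both conditions 15 were higher and 1 was lower, against 5.15% and 3.79% of all genes. The conditions share no array but compare the same populations. The median difference of the 62 genes was 0.05 with SCF and 0.22 without SCF, beside -0.14 and -0.08 over all genes, and the range was wide, -2.64 to 4.89 with SCF and -2.27 to 4.71 without. The middle of the group lay near 0, and the widest gaps belong to the genes described next.

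**Figure D1:**
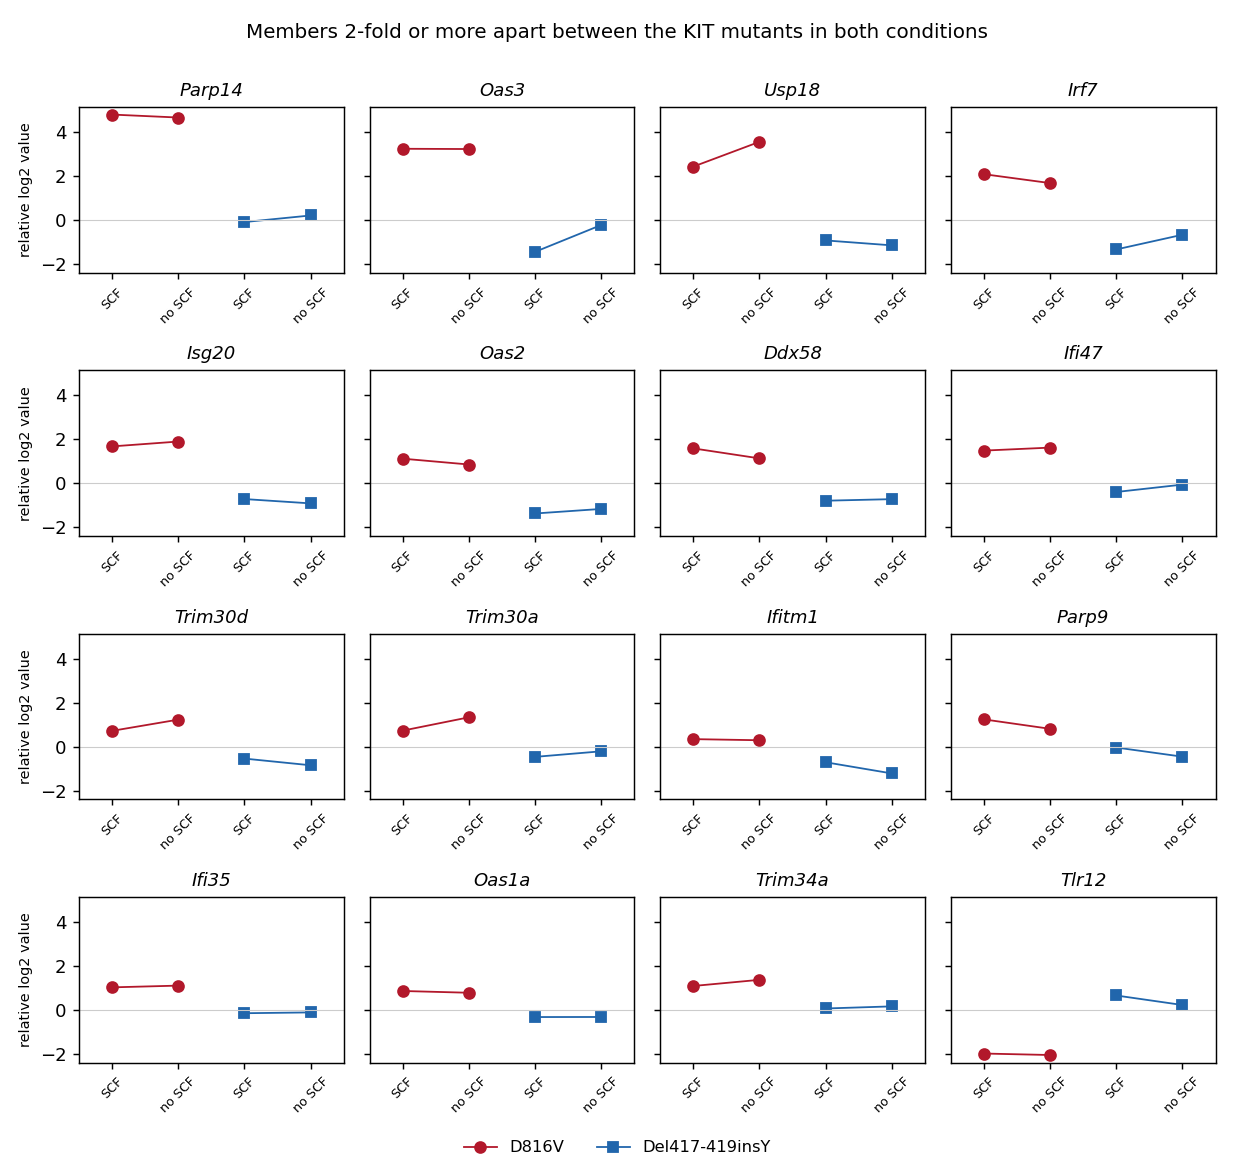
Relative log2 value of each gene on the 4 arrays, for the 16 genes that were 2-fold or more apart in 1 direction in both conditions; red circles are D816V and blue squares Del417-419insY, each with and without SCF, and a line joins the 2 arrays of a line of cells. Both D816V arrays lie above both Del417-419insY arrays in 15 panels, and below them for Tlr12.

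On the deposited values the largest mean difference belonged to Parp14, a mono-ADP-ribosyltransferase induced by interferon. It was at 4.80 and 4.66 in D816V cells with and without SCF, against -0.09 and 0.21 in Del417-419insY cells. Parp14 rose 25.4-fold in D816V cells averaged over the conditions (difference of 4.67 on the log2 scale, SE 0.15, limma adjusted p = 0.000105). This size depended on scaling: Parp14 differed by 2.55 after cyclic loess, less than Oas3, and by 3.83 on quantile-normalized values. Without SCF, Usp18 differed more than Parp14 (4.71 against 4.45). The gap between the lines far exceeded the change with SCF in either line. Parp9, a partner of the ubiquitin ligase Dtx3l in the interferon response, was at 1.24 and 0.81 in D816V cells, against -0.04 and -0.46 in Del417-419insY cells, and rose 2.42-fold (limma adjusted p = 0.00172). Parp14 and Parp9 are neighbours on chromosome 16 in the GRCm38.p6 annotation, with Dtx3l between them. The other Parp genes did not share this: Parp8, Parp1 and Parp6 were lower, with mean differences of -1.03, -0.69 and -0.53 (the call of Parp6 was lost in at least 1 other setting), and Parp3, Parp4 and Parp11 did not pass, at 0.23, 0.47 and -0.18. Parp4 passed as higher after each of the 3 other scalings.

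The Oas genes encode 2'-5' oligoadenylate synthetases and their relatives, which on sensing double-stranded RNA activate RNase L. Of 5 measured members 4 were higher and 1 did not pass, beside 17.9% higher and 24.7% lower over all genes. Oas3 was at 3.24 and 3.23 in D816V cells with and without SCF, against -1.45 and -0.23 in Del417-419insY cells, a 16.8-fold rise (log2 difference 4.07, SE 0.30, limma adjusted p = 0.000866), and its log2 difference was 3.44 after cyclic loess. Oas2 was at 1.12 and 0.85 in D816V cells, against -1.37 and -1.17 in Del417-419insY cells, 4.78-fold higher. Both genes were well separated between the lines on every array. Oas1a rose 2.21-fold and Oas1b 1.60-fold, and Oas1e was at -0.25 (limma adjusted p = 0.139). Oas1a, Oas1e, Oas2 and Oas3 lie within a run of 8 protein-coding genes on chromosome 5, all of the Oas family, and they did not all differ alike. Cross-reading between probe sets of the Oas1 paralogs was not tested.

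Usp18, the protease that removes ISG15 from proteins and also restrains type I interferon receptor signalling, was at 2.43 and 3.56 in D816V cells with and without SCF, against -0.93 and -1.15 in Del417-419insY cells. It rose 16.3-fold on average (log2 difference 4.03, SE 0.32, limma adjusted p = 0.00116), by 3.36 on the log2 scale with SCF and 4.71 without. Isg20, an RNA exonuclease, was at 1.68 and 1.90 in D816V cells, against -0.72 and -0.91 in Del417-419insY cells, 6.08-fold higher (limma adjusted p = 0.000437). Both genes were high on both D816V arrays.

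Among 7 genes of the Ifi and Ifitm type 5 were higher and 2 lower, against 17.9% higher and 24.7% lower of all genes. The lower share was thus near the background. Ifi47, an interferon-inducible GTPase, was at 1.49 and 1.62 in D816V cells with and without SCF, against -0.40 and -0.06 in Del417-419insY cells, 3.44-fold higher (limma adjusted p = 0.000732). Ifi35 and the membrane protein gene Ifitm1 were 2.29-fold and 2.43-fold higher, and the 3 probe sets of Ifi35 each differed by 1.10 or more. Ifi27l2a rose 2.37-fold on average, but its difference was 1.82 with SCF and 0.67 without, so it passed 2-fold only with SCF. Ifitm2, next to Ifitm1 on chromosome 7, was 1.39-fold higher, and it did not pass without the SCF term in the fit. Ifi30, the lysosomal thiol reductase of antigen processing, was at -0.60 and -0.07 in D816V cells, against 0.69 and 0.53 in Del417-419insY cells, and fell by 0.94 on the log2 scale (limma adjusted p = 0.0168). Ifi27 fell by 0.63 and did not pass after cyclic loess, although Ifi27l2a beside it on chromosome 12 was higher.

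**Figure D2:**
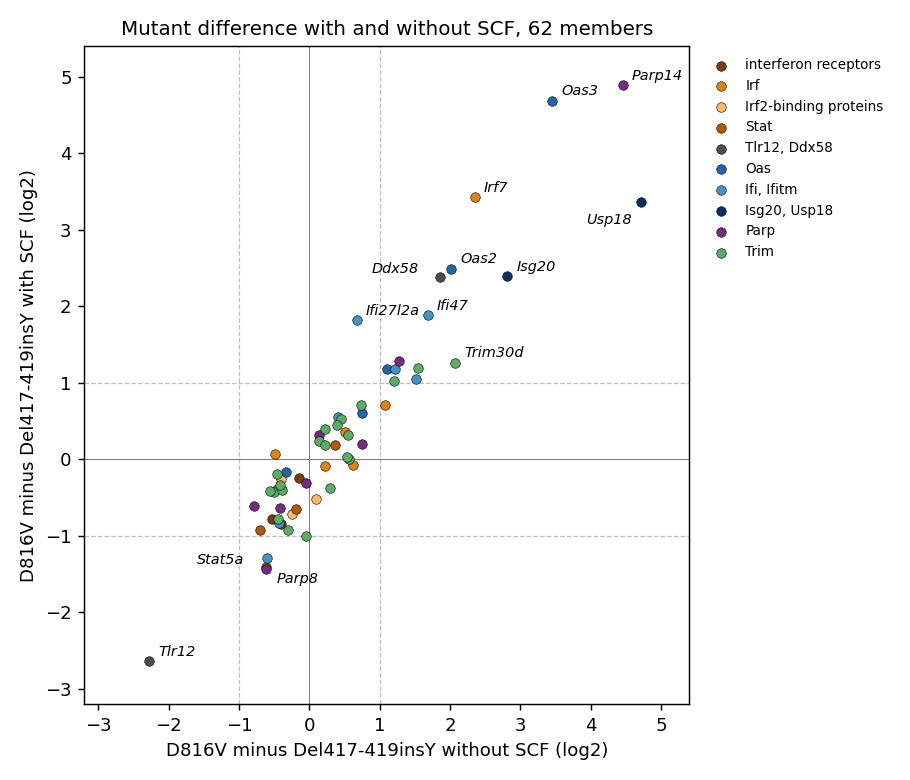
Difference between D816V and Del417-419insY with SCF (vertical) against that without SCF (horizontal) on the log2 scale for the 62 genes, coloured by family; dashed lines mark 2-fold. Parp14, Oas3, Usp18 and Irf7 lie at the upper right, and Tlr12 lies alone at the lower left, at -2.64 with and -2.27 without SCF.

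The transcription factors differed among themselves. Irf7, which is induced by type I interferon and drives interferon alpha genes, was at 2.09 and 1.68 in D816V cells with and without SCF, against -1.34 and -0.67 in Del417-419insY cells, 7.39-fold higher (log2 difference 2.89, SE 0.26, limma adjusted p = 0.0018). Irf1, an activator of interferon gamma responses, was at 0.58 and 0.60 in D816V cells, against -0.13 and -0.47 in Del417-419insY cells, 1.85-fold higher (limma adjusted p = 0.00857). Irf5 was at 0.48 and 0.70 in D816V cells, against 0.13 and 0.20 in Del417-419insY cells, and rose 1.35-fold, a call lost without the SCF term in the fit. Irf2, Irf3 and Irf9 did not pass, with mean differences of -0.21, 0.06 and 0.27. Irf9, which encodes a DNA-binding partner of STAT2, overlapped between the lines, with 0.30 and 0.47 in D816V cells against 0.38 and -0.15 in Del417-419insY cells. Its partner Stat2 was at 0.40 and 0.19 in D816V cells, against 0.21 and -0.17 in Del417-419insY cells (mean difference 0.27, limma adjusted p = 0.118), and passed as higher after median centring. Irf2bp1, Irf2bp2 and Irf2bpl, which encode Irf2-binding proteins, had mean differences of -0.33, -0.48 and -0.21 and did not pass. The 3 probe sets of Irf2bp2 ranged from -0.89 to -0.05, and Irf2bp2 passed as lower with the probe set of highest mean relative value and with a prior that trends with the mean relative value.

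The other STAT genes had negative mean differences, and of these Stat3 and Stat5a passed as lower. Stat3 was at -0.52 and -0.47 in D816V cells with and without SCF, against 0.40 and 0.22 in Del417-419insY cells, and fell by 0.81 on the log2 scale (SE 0.12, limma adjusted p = 0.00833). Stat5a, which acts downstream of KIT and cytokine receptors, was at -1.43 and -0.98 in D816V cells, against -0.02 and -0.36 in Del417-419insY cells, and fell by 1.02 (SE 0.21, limma adjusted p = 0.0179). Its difference was -1.41 with SCF and -0.62 without, and both probe sets were lower. Stat5b was at -0.65 and -0.46 in D816V cells, against 0.00 and -0.26 in Del417-419insY cells, a mean difference of -0.42 that did not pass (limma adjusted p = 0.0755), except with the highest-mean probe set. Stat3, Stat5a and Stat5b are adjacent on chromosome 11, and their D816V arrays all lay below their Del417-419insY arrays. The same was true of 40.7% of all genes.

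Both chains of the type I interferon receptor were lower in D816V cells. Ifnar1 was at -0.37 and -0.28 in D816V cells with and without SCF, against 0.40 and 0.25 in Del417-419insY cells, and fell by 0.65 (SE 0.13, limma adjusted p = 0.0156). Ifnar2 was at -0.84 and -0.73 in D816V cells, against 0.01 and -0.33 in Del417-419insY cells, and fell by 0.62 (limma adjusted p = 0.0278). Of the 3 probe sets of Ifnar2, 1 differed by only -0.15, and the call was lost with the highest-mean probe set and after cyclic loess. Ifnar2 and Ifnar1 flank Il10rb, a shared chain of the interleukin 10 and interferon lambda receptors, on chromosome 16, and Il10rb was lower as well, at -0.56 (limma adjusted p = 0.0214), a call that cyclic loess and a fit with the mutant term alone both removed. Ifngr1 did not pass, at -0.19 (limma adjusted p = 0.218).

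The 2 measured sensors were called in opposite directions. Ddx58 was at 1.59 and 1.13 in D816V cells with and without SCF, against -0.79 and -0.72 in Del417-419insY cells, 4.34-fold higher (log2 difference 2.12, SE 0.16, limma adjusted p = 0.00103), and its 2 probe sets gave 1.83 and 2.40. Tlr12 was at -1.99 and -2.06 in D816V cells, against 0.65 and 0.22 in Del417-419insY cells, 5.49-fold lower (log2 difference -2.46, SE 0.14, limma adjusted p = 0.000445). Tlr12 was the one gene of the 62 that was 2-fold or more lower in both conditions, and it had a single probe set. Its direction was that of the RNA sensor Ifih1, which was left out by name and was at 0.29 and -0.04 in D816V cells, against 3.24 and 2.62 in Del417-419insY cells.

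TRIM proteins are mostly ubiquitin ligases, and some restrict viruses or regulate sensor signalling. Of 22 Trim genes 7 were higher, 6 were lower and 9 did not pass, against the 17.9% higher and 24.7% lower of all genes, so the lower share was near the background. In both conditions 3 were 2-fold or more higher, against 5.15% of all genes. Trim30d was at 0.71 and 1.22 in D816V cells with and without SCF, against -0.55 and -0.85 in Del417-419insY cells, 3.18-fold higher (limma adjusted p = 0.00481). Trim30a, a regulator of Toll-like receptor signalling, was at 0.72 and 1.33 in D816V cells, against -0.47 and -0.22 in Del417-419insY cells, 2.58-fold higher (limma adjusted p = 0.00244). Trim34a was 2.17-fold higher, with 1.08 and 1.36 in D816V cells against 0.06 and 0.16 in Del417-419insY cells. These 3 lie with Trim12a and Trim12c in a run of 10 protein-coding genes on chromosome 7, and Trim12a and Trim12c did not pass, at -0.04 and 0.29, although Trim12c passed as higher after cyclic loess. Trim30a and Trim30d are close paralogs, and a further probe set annotated to both was left out. Trim25, the ubiquitin ligase that activates RIG-I, rose 1.35-fold, a call lost without the SCF term, although the arrays overlapped, at -0.34 and 0.29 in D816V cells against -0.66 and -0.26 in Del417-419insY cells. The lower Trim genes had mean differences from -0.61 to -0.39, and all but 1 of the 6 (Trim13) lost the call under at least 1 alternative.

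**Figure D3:**
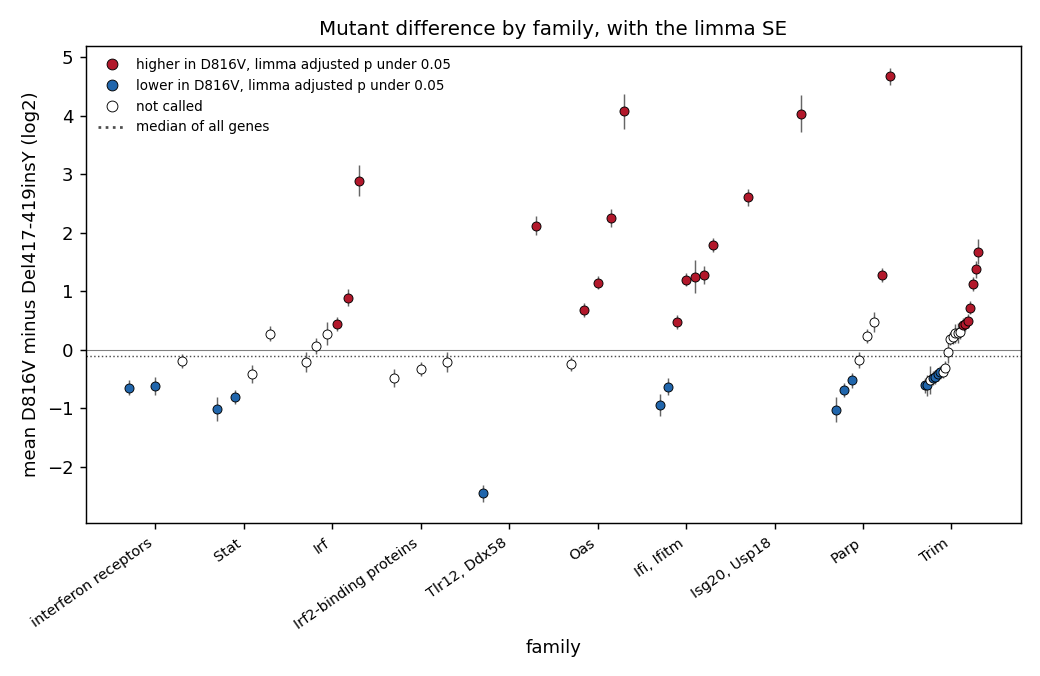
Mean difference between D816V and Del417-419insY over both conditions on the log2 scale, with its limma SE, for the 62 genes by family; red points were called higher, blue points lower and open points not called, and the dotted line is the median of all genes, -0.10. Receptor and Stat genes lie at or below 0.27, and on these deposited values the highest points belong to Parp14, Oas3 and Usp18.

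Promoter sequence was examined for elements of the interferon pathway. RefSeq start sites of GRCm38.p6 matched 50 of the 62 genes, and the 250 bases upstream of each start were searched on both strands for the core of the interferon-stimulated response element (GAAA, any 2 bases, GAAA) and for TTCNNNGAA, the core of the gamma-activated site bound by STAT dimers. The first was present in 11 of 50 genes (22%), against 3.01% of 5244 tested genes and 3.46% of 27025 genes with such sequence. It was present in 6 of 17 genes higher in D816V cells, 0 of 14 lower genes and 5 of 19 that did not pass. The second was present in 8 of 50 genes (16%), against 7.07% of tested genes and 8.13% of all. Both were present in Irf2, Oas1a and Parp11, and shared bases in Parp11. A match is a description of letters and was not read as a binding site. The members were chosen by families that include interferon-induced genes, so their shares beside all genes are no result about the KIT mutants. Ifi27, Ifi27l2a, Oas1b, Oas1e, Oas2, Parp14, Parp9, Trim33, Trim35, Trim65, Trim8 and Usp18 had no entry.

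The 11 matches to the response element core are shown in windows of 30 bases, to compare the element between members that were higher in D816V cells (the 6 listed first) and members that did not pass. Each is written 5' to 3' in the direction of its gene with the match in capitals, as TTTC, 2 bases, TTTC where it lay on the other strand, which was so in 6 of 11.
Oas3 (chr5:120777715-120777744, minus strand): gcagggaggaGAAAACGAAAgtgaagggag
Oas1a (chr5:120907526-120907555, minus strand): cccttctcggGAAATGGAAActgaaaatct
Ifitm2 (chr7:140955988-140956017, minus strand): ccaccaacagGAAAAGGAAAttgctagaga
Trim30a (chr7:104465210-104465239, minus strand): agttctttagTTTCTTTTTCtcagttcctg
Trim30d (chr7:104507871-104507900, minus strand): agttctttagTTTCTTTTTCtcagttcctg
Trim26 (chr17:36836976-36837005, plus strand): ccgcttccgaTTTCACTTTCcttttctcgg
Trim12c (chr7:104353359-104353388, minus strand): agagttgtggTTTCTGTTTCatttccagct
Stat2 (chr10:128270266-128270295, plus strand): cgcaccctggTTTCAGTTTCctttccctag
Irf2 (chr8:46739495-46739524, plus strand): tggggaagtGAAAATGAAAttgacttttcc
Parp4 (chr14:56575459-56575488, plus strand): tttacactctGAAAAAGAAAgtgaaagtcc
Parp11 (chr6:127446786-127446815, plus strand): ttccttttagTTTCGATTTCttggaacccg
The windows of Trim30a and Trim30d are identical, and 7 of the 11 matches begin within 100 bases of the start.

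The full 250 bases upstream of the start follow for Oas3 and Isg20, the higher members with the largest differences among those with a match to either motif, and for Tlr12, the member furthest in the other direction. Capitals mark a match, to the response element core at -75 to -66 from the start in Oas3 and to TTCNNNGAA at -73 to -65 in Isg20 (the start shown is 1 of 3 listed), and Tlr12 had none. Irf7 and Ddx58 had none in this window either.
Oas3 (chr5:120777660-120777909, minus strand): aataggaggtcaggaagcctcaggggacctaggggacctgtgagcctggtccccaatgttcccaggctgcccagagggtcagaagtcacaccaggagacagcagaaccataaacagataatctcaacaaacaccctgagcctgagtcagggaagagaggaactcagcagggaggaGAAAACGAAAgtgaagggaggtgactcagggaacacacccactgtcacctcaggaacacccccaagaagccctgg
Isg20 (chr7:78913174-78913423, plus strand): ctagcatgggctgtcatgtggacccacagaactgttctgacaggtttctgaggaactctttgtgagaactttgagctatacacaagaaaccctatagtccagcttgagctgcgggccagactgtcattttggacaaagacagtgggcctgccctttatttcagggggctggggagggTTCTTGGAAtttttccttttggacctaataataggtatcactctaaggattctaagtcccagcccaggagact
Tlr12 (chr4:128618620-128618869, minus strand): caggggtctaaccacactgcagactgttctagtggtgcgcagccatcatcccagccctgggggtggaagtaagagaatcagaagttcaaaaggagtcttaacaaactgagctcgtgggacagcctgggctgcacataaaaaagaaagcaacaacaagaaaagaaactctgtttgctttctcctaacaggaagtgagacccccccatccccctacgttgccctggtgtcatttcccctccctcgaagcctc

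The wider interferon and innate pathway was described with a list of 109 further genes, of which 68 had values. The list was chosen with earlier results of these data known, so its counts are a description and no independent support. Of these 41 were higher in D816V cells, 4 were lower and 23 did not pass the limma test, beside 17.9% higher and 24.7% lower over all genes. Interferon-stimulated effectors carried most of this, with 29 of 36 higher and 1 lower and a median difference of 1.32, and the list holds the 4 genes left out by name. Ifitm3, Gbp2 and Iigp1, a membrane protein and 2 GTPases induced by interferon, had the largest differences, of 7.37, 5.16 and 4.63, and Ifih1 the lowest, at -2.80. After cyclic loess Gbp2 and Iigp1 differed by 2.33 and 2.49, and Ifih1 by -3.81. On quantile-normalized values Ifitm3, Gbp2 and Iigp1 differed by 6.06, 4.19 and 3.80, and Ifih1 by -3.62. Ifit1 and Oasl2, also left out by name, differed by 4.30 and 4.23. The list of ligand, receptor and JAK genes had 9 with values, 3 higher and 1 lower, and a median difference of -0.265. Among its genes that restrain the pathway, those that passed, Socs1 and Ptpn2, were higher in D816V cells. Socs1, which encodes an inhibitor of JAK signalling, was at 2.55 and 2.41 in D816V cells with and without SCF, against 0.34 and 0.09 in Del417-419insY cells, 4.81-fold higher (limma adjusted p = 0.000338). The other higher genes were the kinase gene Jak2 (0.39) and the phosphatase gene Ptpn2 (0.47), and Il10rb was the lower one. Jak1, also a receptor kinase gene, was at -0.49 and did not pass (limma adjusted p = 0.0518). The restraining genes Socs3, Ptpn6 and Pias1 had mean differences of -0.34, -0.28 and -0.265 and did not pass. Socs1, Jak2, Ptpn2 and these 3 genes were named after their values were seen. Sensor adaptors and kinases gave 5 higher and 1 lower of 12, and inflammasome and NF-kB genes 4 and 1 of 11.

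Differences with SCF were smaller. In the limma test for SCF 0 of the 62 genes passed, as did 0% of all 6404. Without adjustment 7 of the 62 and 1186 of all genes had p under 0.05, and the lowest adjusted p of a member was 0.162. The medians were -0.05 in D816V and 0.09 in Del417-419insY cells, beside -0.05 and 0.03 over all genes. In D816V cells 0 of the 62 genes were 2-fold or more higher with SCF (0.328% of all genes) and 2 were lower (1.31% of all genes). In Del417-419insY cells 0 were higher (0.328%) and 1 was lower (0.547%). In both lines together 0 of the 62 genes were higher and 0 were lower by 2-fold (0.0312% and 0.234% of all genes). The 2 lower genes in D816V cells became 0 on quantile-normalized values and 1 after cyclic loess or median centring.

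The 3 genes past 2-fold in 1 line were Usp18, Trim35 and Oas3. Usp18 was at 2.43 with SCF and 3.56 without SCF in D816V cells, a difference of -1.13, and had a difference of 0.22 in Del417-419insY cells. Trim35 was at -1.53 with SCF and -0.46 without SCF in D816V cells, a difference of -1.07, and differed by -0.12 in Del417-419insY cells. Oas3 was at -1.45 with SCF and -0.23 without SCF in Del417-419insY cells, a difference of -1.22, and differed by 0.01 in D816V cells. Each thus stood apart in 1 line only, on 1 probe set, and whether the lines differed could not be tested with 1 array per group.

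Differences of 1 sign in both lines were small. On the higher side Trim65 had 0.45 with SCF over no SCF in D816V and 0.48 in Del417-419insY cells, Irf2 had 0.71 and 0.15, and Parp9 had 0.43 and 0.42. Ifngr1 followed with 0.36 and 0.47, and Trim45 with 0.43 and 0.33. On the lower side Trim35 was followed by Parp4 with -0.85 and -0.30, Trim25 with -0.63 and -0.40, Trim30a with -0.61 and -0.25, and Ifi47 with -0.14 and -0.34. None of these passed. Signs were opposite between the lines in 32 of the 62 genes (51.6%), against 34.3% of all genes.

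**Figure D4:**
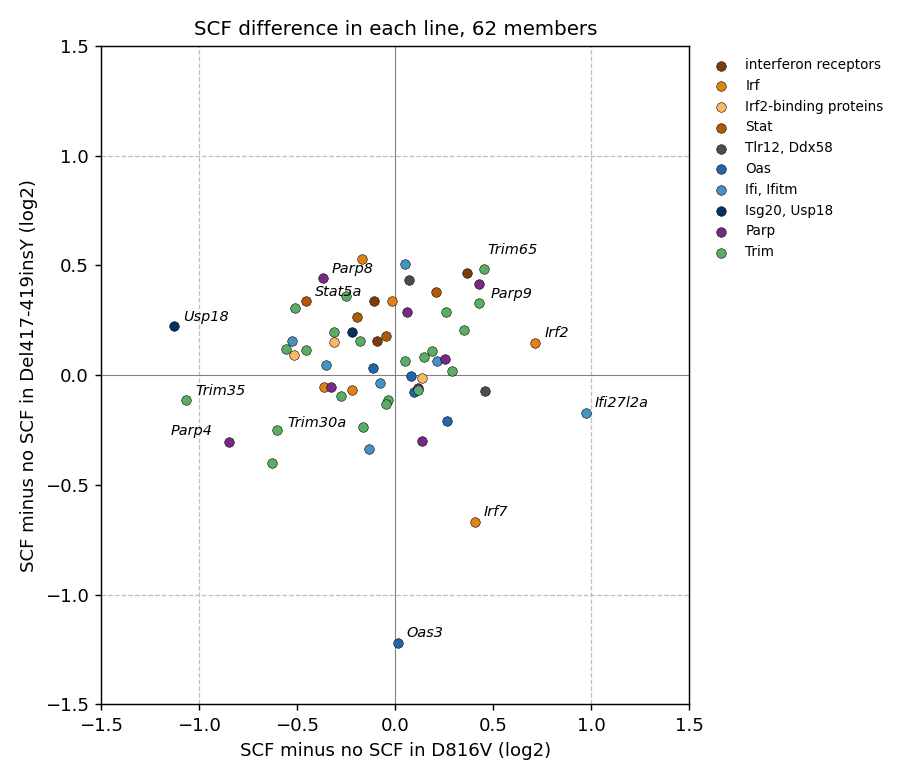
Difference between SCF and no SCF in Del417-419insY cells (vertical) against that in D816V cells (horizontal) on the log2 scale for the 62 genes, coloured by family; dashed lines mark 2-fold. Usp18 (-1.13) and Trim35 (-1.07) lie left of the line in D816V cells, Oas3 (-1.22) lies below it in Del417-419insY cells, and Irf7 is higher in D816V and lower in Del417-419insY cells.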

How the data were processed

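Biotin-labelled RNA of 4 EML cultures was hybridised to Affymetrix mouse arrays, 1 per culture. The authors made the deposited log2 values with RMA, which the submitters' processing notes name with no version; RMA gives log2, and no source used here states the base. The table holds 10861 probe sets, each relative to a level of its own that no label explains, and the filter behind that number is likewise unstated. Neither brightness nor detection was used, so the number of arrays limits the precision, and background correction and slide effects could not be tried.

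Symbols came from the platform annotation: 9633 probe sets had 1 symbol, and 264 with several and 964 with none were left out. A gene's value was the mean of its probe sets. Of the 82 probe sets of the 62 members, all of which matched RefSeq by gene ID, 8 ended in _s_at and 4 in _x_at, endings that mark possible reading of other transcripts. The test was limma 3.58.1 in R 4.3.3 on mutant plus SCF over 4 arrays, with 1 residual degree of freedom and a prior of 4.1 degrees of freedom and SD 0.127, tested on simulated data; p-values were adjusted by Benjamini-Hochberg over 6404 genes. Genes were named where 2-fold apart in both conditions, in the Irf and Stat families, or by their SCF difference, and pathway genes at the 3 furthest differences on each side; other names were chosen after their values were seen. The members and lists were chosen with earlier results of these data known. Alternatives were 3 scalings, the highest-mean probe set, a filter at the 25th percentile, a 1.5-fold threshold, a fit with 1 term, and a trend or robust prior.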

Additional observations from a re-analysis of the deposited data

Results flagged for a closer look

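In 3 of the 62 genes the SCF difference ran in opposite directions in the 2 lines by more than a set minimum on each side. With 1 array per group, the difference between the lines was not tested. Irf7 differed by 0.41 between SCF and no SCF in D816V cells and by -0.67 in Del417-419insY cells, a gap of 1.07 on the log2 scale. Parp8 differed by -0.37 and 0.44, a gap of -0.81. Stat5a differed by -0.46 and 0.34, a gap of -0.79.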

How the results depend on the processing

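With 1 array per group, differences have no replicate check, and no called value changed sign under the alternatives run. The mutant test sets the lines against each other within each SCF condition, and the fit with 1 term drops that block. The filter left 52 of 62 members; it ranks probe sets by mean relative value, so a low value in D816V cells itself helps to remove a gene (Tlr12, Stat5a and Parp8 were removed), and its lower counts say nothing of stability. Of the calls for the mutant, 19 of 24 higher and 8 of 16 lower members kept theirs under every alternative that gave a value. Of 22 members not called 10 passed under some alternative, among them Trim12c, Trim21, Trim24 and Trim65 as higher and Trim32 and Trim68 as lower. A fit with 1 term called 10 members lower, 1 pathway gene lower, and 690 genes higher and 913 lower over the whole table, and median centring called 2 pathway genes lower. Members 2-fold lower in D816V cells with SCF numbered 2 after cyclic loess, 1 after the filter and 15 at 1.5-fold. Without SCF, and in both conditions, they numbered 0 after the filter and 6 at 1.5-fold. With SCF over no SCF in D816V cells, members higher numbered 1 after cyclic loess, 1 after median centring and 2 at 1.5-fold. Members lower there numbered 1 after cyclic loess, median centring or the filter, 0 after quantile normalization and 5 at 1.5-fold, and in Del417-419insY cells 2 at 1.5-fold. For SCF, limma called 0 members under every alternative. Over all genes it called 13 higher and 29 lower for SCF after cyclic loess, 1 and 1 after quantile normalization, 113 and 143 after median centring, 41 and 215 where each gene took its highest-mean probe set, 2 and 20 after the filter, and 2 and 8 with a trend. The median mutant difference of members with SCF was 0.150 after cyclic loess, 0.148 after quantile normalization, 0.200 after median centring and 0.216 after the filter. Without SCF it was 0.396 after the filter. The median SCF difference in D816V cells was 0.046 after median centring. Scaling moved the median of all genes by 0.149, 0.126 and 0.152 with SCF and by 0.113, 0.068 and 0.087 without SCF for cyclic loess, quantile normalization and median centring. The cause of these shifts was not tested.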

Other observations

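Besides the 62 genes, 6 probe sets carried several gene symbols of which at least 1 belonged to these families, so they name no single gene. Of these 2 were 2-fold or more higher in D816V cells in both conditions and 0 were lower, against 5.15% and 3.79% of all genes. The first, annotated to Isg15 and Gm9706, was at 2.50 and 3.48 in D816V cells with and without SCF, against -1.23 and -0.86 in Del417-419insY cells. The other was the probe set of the members Trim30a and Trim30d mentioned above, and so adds no further gene. It was at 0.945 and 1.72 in D816V cells, against -0.36 and -0.11 in Del417-419insY cells.

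Neighbouring members did not always differ alike. Of the 62 genes 22 lay in 8 groups with at most 10 protein-coding genes between neighbours. In the Parp14 and Parp9, Ifitm1 and Ifitm2, and Ifnar1 and Ifnar2 pairs both members were called in 1 direction. Ifi27 and Ifi27l2a were called in opposite directions. Over all genes 42.6% were called, 17.9% higher and 24.7% lower.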
